A study of Mus musculus with 2 samples.

Results

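Genes of the Cyp2a and Cyp2b subfamilies of cytochrome P450 were compared between small hepatocytes (SHs) and mature hepatocytes (MHs) of the adult mouse. They were taken by symbol, as every counted gene named Cyp2a or Cyp2b followed by a number, which gave 9 of 43280 genes. The Cyp2a genes were Cyp2a4, Cyp2a5, Cyp2a12 and Cyp2a22, and the Cyp2b genes were Cyp2b9, Cyp2b10, Cyp2b13, Cyp2b19 and Cyp2b23. Of the 9 genes, 6 had at least 10 reads over both libraries and are described singly, and each subfamily is also given as a sum.

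The RNA-seq data consisted of 1 library of MHs and 1 library of SHs, both from livers of C57BL6 mice labelled as 20 weeks old. The methods give a younger age range for the mice of the study and name 3 mice as the source of these cells, and the labels give neither their sex nor any inducing drug. Both kinds of cells came from the same mice after collagenase perfusion. MHs were freed of dead cells on a Percoll gradient without sorting, and SHs were sorted for ICAM-1 and against CD31, CD45 and EpCAM. There were no replicates, so no test between SHs and MHs was possible, no p-value is given, and every interval covers counting error only.

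CYP2A and CYP2B enzymes sit in the membrane of the endoplasmic reticulum of hepatocytes, where they oxidize drugs, nicotine, coumarin and steroids with electrons passed on by the reductase POR. Some of them, such as CYP2B10, are known for strong induction by phenobarbital-like compounds. These act through the nuclear receptor CAR, the product of Nr1i3, and partly through PXR, the product of Nr1i2. In the liver lobule, expression of CYP2A5 and CYP2B enzymes is known to be stronger around the central vein than around the portal vein.

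All 9 genes lie in 1 cluster of CYP2 genes on chromosome 7, which spans 1356 kb in the GENCODE M21 annotation of mm10, from 25802475 to 27158668, with Cyp2s1 and Cyp2t4 at its ends. The main transcripts of the Cyp2a genes have 9 exons each. Their coding sequences fall into pairs. Those of Cyp2a4 and Cyp2a5 differed at 23 of 1482 bases, and those of Cyp2a12 and Cyp2a22 at 45 of 1476. Between the pairs, identity was lower, with 76.0% between Cyp2a5 and Cyp2a12. The stretch of 90 coding bases in exon 4 with the most differences between Cyp2a5 and Cyp2a4 is printed from the GENCODE transcripts, with the most similar stretch of the other pair, to show how far reads of the 4 genes can be told apart. Capitals mark bases that differ from Cyp2a5.
Cyp2a5 (chr7:26837133-26837222, plus strand): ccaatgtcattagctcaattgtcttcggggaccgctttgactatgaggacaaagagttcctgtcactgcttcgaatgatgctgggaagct
Cyp2a4 (chr7:26308970-26309059, plus strand): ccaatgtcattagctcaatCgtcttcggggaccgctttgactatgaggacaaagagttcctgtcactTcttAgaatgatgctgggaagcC
Cyp2a22 (chr7:26937736-26937825, minus strand): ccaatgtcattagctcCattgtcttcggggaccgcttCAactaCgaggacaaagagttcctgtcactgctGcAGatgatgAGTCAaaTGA
Cyp2a12 (chr7:27031144-27031233, plus strand): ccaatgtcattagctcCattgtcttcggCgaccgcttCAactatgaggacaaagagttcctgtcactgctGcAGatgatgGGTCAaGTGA

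Counted from the first base of the coding sequence, and with the base of Cyp2a5 first, Cyp2a4 differed in this stretch by T555C, G603T, C607A and T625C. The last of these is the first base of codon 209, and the residue at this place is known to set the preference of these enzymes, coumarin for CYP2A5 and steroids for CYP2A4. Elsewhere the transcripts were more alike. Of all windows of 100 bases in the Cyp2a4 transcript, 77.0% matched Cyp2a5 with at most 2 mismatches, the number the methods allowed in the alignment. For the windows of Cyp2a12, 37.5% matched Cyp2a22 in this way. Not 1 window was shared between the pairs (0%). The division of reads within a pair was therefore uncertain, whereas windows of this length and mismatch limit separated the pairs from each other. The methods also set a minimum length fraction and a minimum similarity fraction, which the windows did not apply. Whether the pairs separate under those settings was not tested. The length of the reads is not given in the sources used here.

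The pairing was also seen upstream of the genes. The windows from 250 bases before to 50 after the RefSeq start had 97.7% identity between Cyp2a4 and Cyp2a5, 84.2% between Cyp2a12 and Cyp2a22, and 51.9% between Cyp2a5 and Cyp2a12. Among the Cyp2b genes, Cyp2b9 and Cyp2b13 had 99.3% identity there, and Cyp2b9 and Cyp2b10 had 70.7%. The upstream parts of the 6 genes with at least 10 reads are printed from RefSeq (GRCm38.p6), up to the earlier of the RefSeq and GENCODE starts. They let the upstream sequences be set beside the ratios given further on. Capitals mark matches of 3 searched motifs.
Cyp2a5 (chr7:26835089-26835304, plus strand): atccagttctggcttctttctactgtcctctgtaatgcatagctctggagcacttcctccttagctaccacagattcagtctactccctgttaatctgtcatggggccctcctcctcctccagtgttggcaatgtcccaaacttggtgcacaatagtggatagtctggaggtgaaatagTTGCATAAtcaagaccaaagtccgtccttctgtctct
Cyp2a4 (chr7:26306942-26307168, plus strand): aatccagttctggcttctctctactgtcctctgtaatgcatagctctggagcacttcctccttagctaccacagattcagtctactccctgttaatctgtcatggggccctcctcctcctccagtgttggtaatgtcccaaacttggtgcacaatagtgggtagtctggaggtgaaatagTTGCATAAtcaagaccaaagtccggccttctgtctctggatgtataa
Cyp2a12 (chr7:27028840-27029080, plus strand): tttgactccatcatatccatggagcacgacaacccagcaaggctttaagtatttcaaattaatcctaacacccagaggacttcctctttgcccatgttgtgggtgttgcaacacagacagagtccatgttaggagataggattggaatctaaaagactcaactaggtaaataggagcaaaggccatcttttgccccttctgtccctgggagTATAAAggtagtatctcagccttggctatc
Cyp2a22 (chr7:26939387-26939636, minus strand): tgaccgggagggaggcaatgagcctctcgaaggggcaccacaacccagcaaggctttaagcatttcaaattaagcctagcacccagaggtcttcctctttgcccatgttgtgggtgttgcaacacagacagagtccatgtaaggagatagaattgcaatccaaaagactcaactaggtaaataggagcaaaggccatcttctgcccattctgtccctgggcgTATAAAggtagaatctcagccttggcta
Cyp2b10 (chr7:25897408-25897619, plus strand): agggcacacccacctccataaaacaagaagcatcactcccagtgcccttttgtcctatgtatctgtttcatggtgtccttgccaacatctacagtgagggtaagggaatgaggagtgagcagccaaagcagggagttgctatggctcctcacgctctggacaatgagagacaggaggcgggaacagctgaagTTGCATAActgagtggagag
Cyp2b9 (chr7:26173159-26173408, plus strand): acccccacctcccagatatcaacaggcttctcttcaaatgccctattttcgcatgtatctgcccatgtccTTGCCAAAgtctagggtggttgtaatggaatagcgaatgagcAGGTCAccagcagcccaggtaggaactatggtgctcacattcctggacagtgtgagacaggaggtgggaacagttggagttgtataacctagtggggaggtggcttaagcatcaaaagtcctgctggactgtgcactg

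The motifs were TATAAA, the TATA box, TTNNGCAA, a site like that of C/EBP factors, and AGGTCA, a single site of the kind bound by nuclear receptors, each searched on both strands of the windows. No match overlapped another. TATAAA was found in the 4 Cyp2a windows and in 13.6% of all 32851 windows of the table. In Cyp2a4 and Cyp2a5 it lay 28 and 29 bases upstream of the RefSeq start. It is not marked in capitals there, because in Cyp2a5 it lies past the GENCODE start, where the printed part ends, and in Cyp2a4 its last base does. TTNNGCAA was found in Cyp2a4 and Cyp2a5, 70 and 71 bases upstream, in all 5 Cyp2b windows, in neither Cyp2a12 nor Cyp2a22, and in 10.8% of all windows. AGGTCA was found upstream in Cyp2b9, Cyp2b13, Cyp2b19 and Cyp2b23, downstream of the start in Cyp2a4 and Cyp2a5, and in 16.3% of all windows. A match is a run of letters and not a shown binding site.

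In total, 16979136 reads were counted on genes for MHs and 42356444 for SHs, and counts were divided by these totals and multiplied by 1000000 to give reads per 1000000 (RPM). At this depth the floor of detection, set at 3 reads, stood at 0.177 RPM in MHs and 0.0708 RPM in SHs. The labelled cell type was checked by 6 hepatocyte genes, among them Alb and Hnf4a, whose log2 ratios of SHs over MHs lay between -0.19 and 0.13. Markers of other liver cells differed between the libraries. Of 9 macrophage markers, 8 were counted, and the other lists of cell markers were counted in full. The 10 endothelial markers summed to 100.4 RPM in MHs and 4.79 in SHs, the 7 macrophage markers with at least 10 reads to 21.0 and 0.637, and the 9 such stellate cell markers to 27.7 and 2.46. Lyve1, Marco and Colec11 of these lists had 0 reads in SHs. The 4 of 8 cholangiocyte markers with at least 10 reads summed to 20.9 RPM in MHs and 24.6 in SHs, and Cftr had 0 reads in SHs. Together, the 36 counted markers made up 0.0171% of all MH reads and 0.00327% of all SH reads, and the part of other cells in the results was not tested.

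The Cyp2a subfamily was carried by Cyp2a12 in both libraries. Cyp2a12, which encodes a hepatic steroid hydroxylase (ENSMUSG00000060407, chr7:27029081-27037375), was counted 8335 times in MHs and 19419 times in SHs, which were 490.9 and 458.5 RPM. Both libraries were thus at nearly one level. The log2 ratio of SHs over MHs, computed with 0.5 reads added to each count, was -0.099 (95% Clopper-Pearson interval -0.14 to -0.061). Cyp2a22 (ENSMUSG00000091867, chr7:26931631-26939384), its neighbor on the opposite strand, was counted 292 times in MHs and 692 times in SHs, or 17.2 and 16.3 RPM. Its log2 ratio of -0.075 had an interval of -0.27 to 0.13, which included 0.

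Levels of Cyp2a5 and Cyp2a4 were several times higher in MHs than in SHs. Cyp2a5, the coumarin 7-hydroxylase (ENSMUSG00000005547, chr7:26835305-26843548), was counted 1254 times in MHs and 582 times in SHs, the library with more reads overall. Its level was 73.9 RPM against 13.7 RPM, a level 5.38-fold lower in SHs (95% interval 4.87 to 5.94) and a log2 ratio of -2.43. Cyp2a4, the steroid 15α-hydroxylase (ENSMUSG00000074254, chr7:26307169-26315088), was counted 55 times in MHs and 28 times in SHs. These were 3.24 RPM (exact Poisson interval 2.44 to 4.22) and 0.661 RPM (0.439 to 0.955). The level of Cyp2a4 was 4.90-fold lower in SHs (3.06 to 8.02), a log2 ratio of -2.28. Less RNA of these genes per hepatocyte and fewer hepatocytes that express them cannot be told apart in bulk libraries.

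The Cyp2b genes were low in both libraries. Cyp2b10, the phenobarbital-inducible gene that is commonly read as a sign of active CAR (ENSMUSG00000030483, chr7:25897620-25926624), was counted 117 times in MHs and 320 times in SHs. These were 6.89 RPM (5.70 to 8.26) and 7.55 RPM (6.75 to 8.43), so the intervals of the libraries overlapped. Its log2 ratio was 0.13 (-0.18 to 0.45), and a 2-fold difference lay outside this interval. Cyp2b9, which is known for stronger expression in female than in male liver (ENSMUSG00000040660, chr7:26173411-26210661), was counted 33 times in MHs and 22 times in SHs. These were 1.94 RPM (1.34 to 2.73) and 0.519 RPM (0.326 to 0.786), a level 3.74-fold lower in SHs (2.12 to 6.74). Cyp2b13 had 1 read in each library. Its coding sequence had 92.7% identity with that of Cyp2b9, and 10.6% of the windows of the Cyp2b9 transcript matched it with at most 2 mismatches. Cyp2b19, a gene of the skin, and Cyp2b23 had 0 reads in both. The exact Poisson intervals allow levels up to 0.217 RPM in MHs and 0.0871 RPM in SHs.

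**Figure D1:**
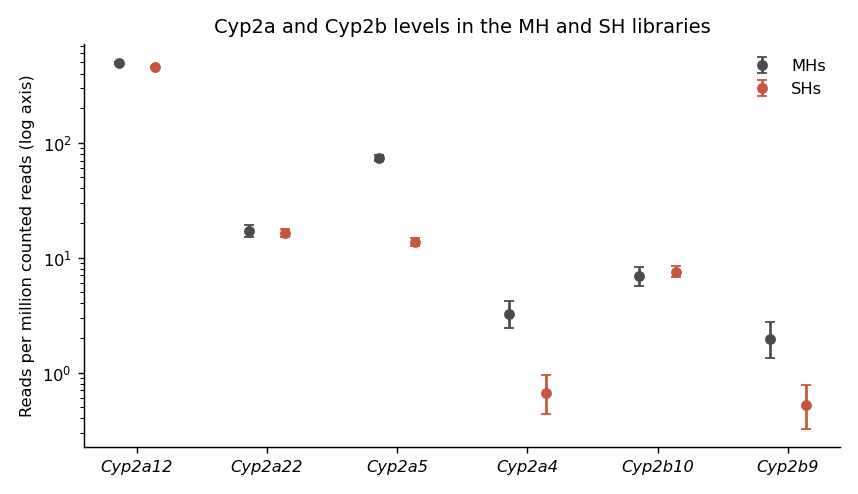
Level of each gene with at least 10 reads in the library of MHs (dark) and of SHs (red), in RPM on a log axis, with exact Poisson 95% intervals. Cyp2a5, Cyp2a4 and Cyp2b9 lay lower in SHs, from 73.9 to 13.7, from 3.24 to 0.661 and from 1.94 to 0.519, while the points of Cyp2a12, Cyp2a22 and Cyp2b10 stayed close.

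Of the 6 genes, Cyp2a4, Cyp2a5 and Cyp2b9, that is 3 genes, were at least 2-fold lower in SHs with an interval under 0. Among all 15521 genes with at least 10 reads, 4.46% were. None of the 6 (0) was at least 2-fold higher with an interval over 0, against 2.00% of all genes. With no limit on size, the interval lay under 0 for 4 of the 6 genes, Cyp2a12 being the fourth, against 15.5% of all genes. It lay over 0 for 0 of the 6, against 16.8% of all genes. Whether an interval excludes 0 depends on the number of reads, and genes were not matched for this, here and in the lists that follow. The median log2 ratio of the 6 genes was -0.996 and fell in the gap between Cyp2b9 at -1.89 and Cyp2a12 at -0.099, and the median of all 15521 genes was 0.017. Since 3 of the 9 genes did not reach 10 reads, these counts do not stand for the whole cluster. The division of reads between Cyp2a4 and Cyp2a5 was uncertain, as 77.0% of the Cyp2a4 windows matched Cyp2a5. Whether Cyp2a4 differed apart from Cyp2a5, here and in the comparisons that follow, was not tested.

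The place of the 6 genes among the 70 Cyp genes with at least 10 reads differed accordingly. Counted from the lowest log2 ratio, Cyp2a5 was number 4, Cyp2a4 number 5 and Cyp2b9 number 9, whereas Cyp2a12, Cyp2a22 and Cyp2b10 were numbers 53, 56 and 66. Of the 9608 genes of any kind with at least 200 reads, 11 had a lower log2 ratio than Cyp2a5.

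**Figure D2:**
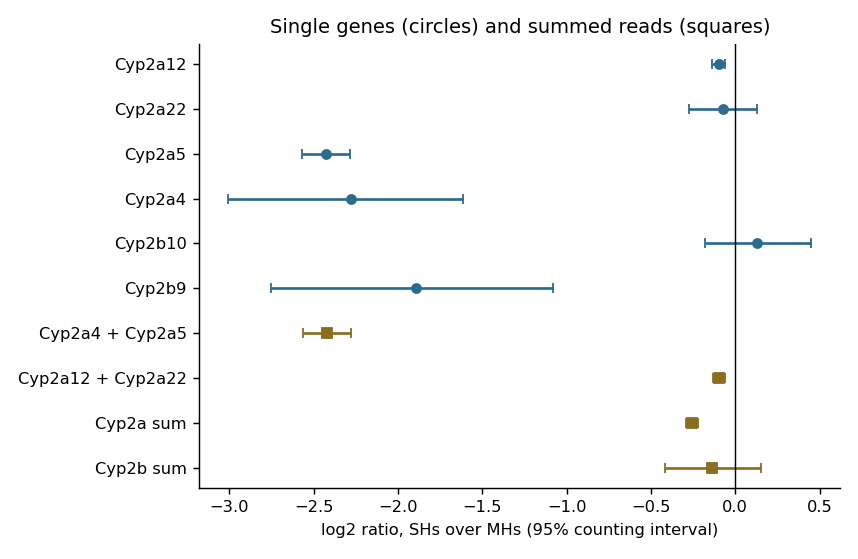
Log2 ratio of SHs over MHs with its 95% counting interval for single genes (circles) and for summed reads (squares); the vertical line marks equal levels. Cyp2a5, Cyp2a4 and Cyp2b9 lay between -2.43 and -1.89, and the other 3 genes between -0.099 and 0.13.

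Summed over its 4 genes, Cyp2a took 585.2 RPM in MHs and 489.2 RPM in SHs, a log2 ratio of -0.26 (-0.29 to -0.22). This sum hid the difference between the pairs. Cyp2a4 and Cyp2a5 together were 77.1 RPM in MHs and 14.4 in SHs, 5.35-fold lower in SHs (4.86 to 5.90), whereas Cyp2a12 and Cyp2a22 together were 508.1 and 474.8 RPM, 1.07-fold lower (1.04 to 1.10). Without Cyp2a12, its gene with the most reads, the Cyp2a sum had a log2 ratio of -1.62 (-1.72 to -1.51). Summed over its 5 genes, Cyp2b took 8.89 RPM in MHs and 8.10 RPM in SHs, and its log2 ratio of -0.14 was not set apart from 0 by counting (-0.42 to 0.15). Without Cyp2b10 the Cyp2b sum rested on 34 reads in MHs and 23 in SHs and had a log2 ratio of -1.87 (-2.71 to -1.08).

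Shares within a subfamily do not depend on how the libraries were scaled. Of 9936 Cyp2a reads in MHs, 13.2% (12.5 to 13.9%) fell on Cyp2a4 and Cyp2a5, and of 20721 in SHs, 2.94% (2.72 to 3.18%). For every 100 reads on Cyp2a12 and Cyp2a22 there were 15.2 reads on Cyp2a4 and Cyp2a5 in MHs and 3.03 in SHs, a 5.0-fold change of the proportion (exact conditional interval 4.53 to 5.53). Within the pairs, no change was detectable. Cyp2a4 held 4.20% of the reads of its pair in MHs (3.18 to 5.43%) and 4.59% in SHs (3.07 to 6.57%). Cyp2a22 held 3.38% of its pair in MHs (3.01 to 3.79%) and 3.44% in SHs (3.19 to 3.70%). Of the Cyp2b reads, Cyp2b9 held 21.9% in MHs (15.5 to 29.3%) and 6.41% in SHs (4.06 to 9.55%). For every 100 reads on Cyp2b10 there were 28.2 reads on Cyp2b9 in MHs and 6.88 in SHs, a 4.09-fold change (2.21 to 7.69).

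**Figure D3:**
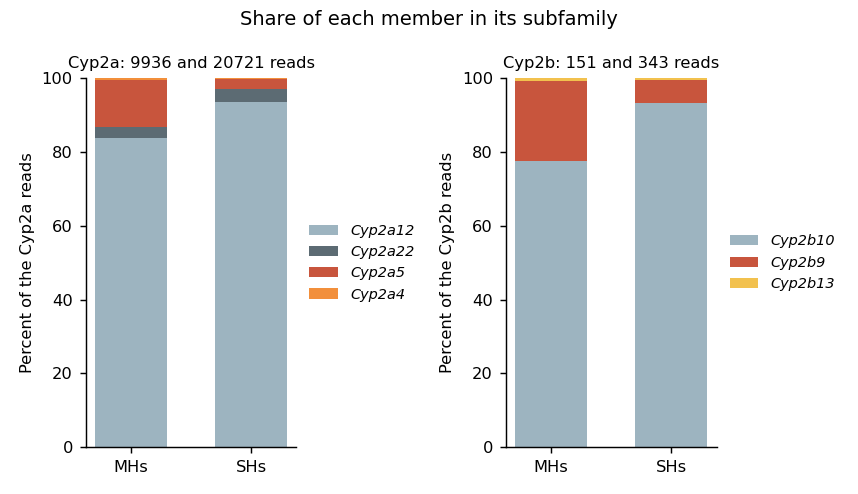
Percent of the reads of each subfamily on each of its genes in the library of MHs and of SHs, as stacked bars from 0 to 100%, with the number of reads above. The red part, Cyp2a5 on the left and Cyp2b9 on the right, was smaller in SHs, at 2.81% and 6.41%, than in MHs, at 12.6% and 21.9%.

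Because transcripts differ in length, the order of the genes was taken from RPM per kilobase of the main transcript. In MHs the order of levels was Cyp2a12 with 292.0, Cyp2a5 with 36.7, Cyp2a22 with 9.58, Cyp2b10 with 3.78, Cyp2a4 with 1.86 and Cyp2b9 with 1.04. In SHs, Cyp2a12 with a level of 272.7 was followed by Cyp2a22 with 9.10 and Cyp2a5 with 6.83, so that Cyp2a5 and Cyp2a22 changed places. Cyp2b10 came next with 4.15, then Cyp2a4 with 0.380 and Cyp2b9 with 0.277. Of neighbors in either order, only Cyp2a4 and Cyp2b9 had overlapping intervals, in MHs from 1.40 to 2.43 and from 0.713 to 1.45, and in SHs from 0.253 to 0.550 and from 0.174 to 0.419.

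Among the 6 Cyp2a and Cyp2b genes with ratios, the 3 with low ratios followed each other in the cluster. From the Cyp2s1 end, Cyp2b10 was followed by Cyp2b9, Cyp2a4, Cyp2a5, Cyp2a22 and Cyp2a12. Cyp2b9, Cyp2a4 and Cyp2a5 thus formed an unbroken run among these 6 genes, although Cyp2b23 and Cyp2b19, with 0 reads, and Cyp2g1 lie between Cyp2a4 and Cyp2a5. The run holds for these 6 genes only. Between Cyp2b9 and Cyp2a4 lies Gm8902, a processed pseudogene counted 7 times in MHs and 16 times in SHs. Cyp2a5 and Cyp2a22 are next to each other among the counted genes, with log2 ratios of -2.43 and -0.075. Of the other CYP2 genes of the cluster, Cyp2f2, a known periportal gene, was counted 40692 times in MHs and 105711 times in SHs, a log2 ratio of 0.058 (0.042 to 0.075). Cyp2g1 was counted 0 times in MHs and 4 times in SHs, and Cyp2s1 and Cyp2t4 had 0 in both. Of the 15 counted genes of other kinds in the cluster, 4 had at least 10 reads, all of them pseudogenes or an antisense gene. The antisense gene that overlaps the start of Cyp2a4 and the 3 annotated Cyp2a and Cyp2b pseudogenes were not among the counted symbols, and how reads from them were counted was not tested. Rnf170-ps, which lies within Cyp2b13, was counted 10 times in MHs and 26 times in SHs.

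**Figure D4:**
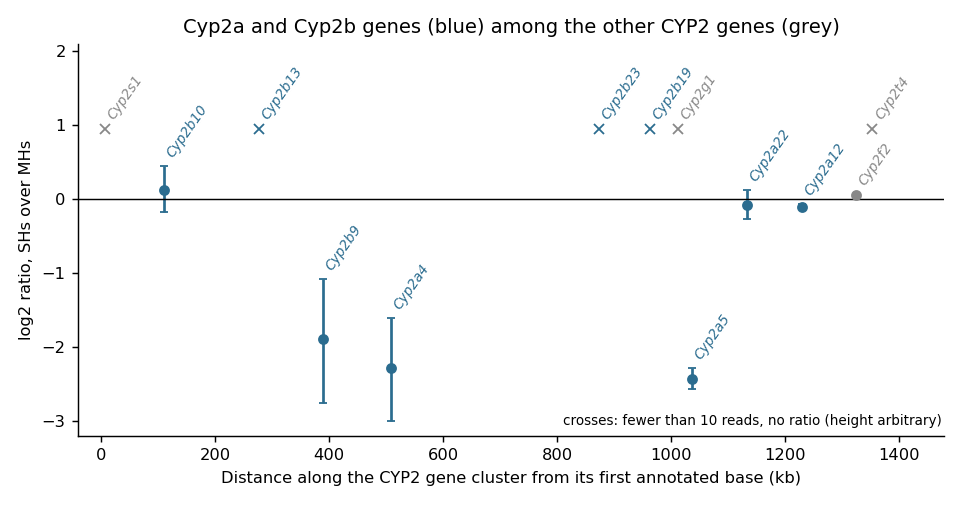
Log2 ratio of SHs over MHs with its 95% counting interval against the distance in kb from the first base of the cluster; blue marks Cyp2a and Cyp2b genes and grey the other CYP2 genes, and crosses at an arbitrary height mark genes with fewer than 10 reads. Cyp2b9, Cyp2a4 and Cyp2a5 lay far under 0 and had genes with ratios near 0 on either side.

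The receptors and other regulators known to act on these genes were taken as a list of 16 genes, and all 16 had at least 10 reads. Of these, 4 had an interval under 0, 5 had one over 0 and 7 had one that included 0, with a median log2 ratio of 0.021. Among all genes with at least 10 reads, the interval lay under 0 for 15.5% and over 0 for 16.8%. Nr1i3, the gene of CAR, was counted 679 times in MHs and 645 times in SHs, or 40.0 and 15.2 RPM, with a log2 ratio of -1.39 (-1.55 to -1.24). Ahr, the dioxin receptor, had a log2 ratio of -1.30 (-1.51 to -1.09). These were the only regulators on the list at least 2-fold lower, 2 of 16 against 4.46% of all genes with at least 10 reads. Nr1i2, the gene of PXR, was slightly higher in SHs, with 0.18 (0.075 to 0.30), as was Rxra, whose product pairs with both receptors, with 0.19 (0.14 to 0.23). Hnf4a, the hepatocyte factor that drives many Cyp genes, had a log2 ratio of 0.035 (0.0030 to 0.068), close to the median of all genes. The interval of Cyp2b10 lay wholly above that of Nr1i3, and the interval of Cyp2a5 wholly below it.

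CYP enzymes need electrons and heme, and the 5 genes listed for this had a median log2 ratio of -0.017. Por, the reductase that serves all CYP2 enzymes, had a log2 ratio of -0.38 (-0.45 to -0.32), and Cyb5a, the cytochrome b5 that helps some of them, one of -0.30 (-0.34 to -0.26). Cyb5r3 was higher in SHs, with 0.31 (0.26 to 0.36). The intervals of Cyb5b and of Alas1, the first enzyme of heme synthesis, included 0.

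The other genes known as targets of CAR or PXR were a list of 23 genes, of which 22 were counted and had at least 10 reads. The interval lay under 0 for 14 of them and over 0 for 5, against 15.5% and 16.8% of all genes with at least 10 reads, which were not matched for read number. Their median log2 ratio was -0.19. At least 2-fold lower with an interval under 0 were 4 genes, against 4.46% of all genes. At least 2-fold higher with an interval over 0 were 2 genes, against 2.00%. The 4 lower genes were all of the Cyp2c subfamily, namely Cyp2c37 with a log2 ratio of -1.92 (-2.02 to -1.82), Cyp2c29 with -1.59, Cyp2c54 with -1.39 and Cyp2c50 with -1.37. Cyp3a11, the main target of PXR, had -0.46 (-0.48 to -0.45), and Ugt1a1, which conjugates bilirubin, had -0.29 (-0.36 to -0.22). In the other direction, Gadd45b, a stress and growth gene that CAR activators also induce, was counted 32 times in MHs and 293 times in SHs, a log2 ratio of 1.86 (1.35 to 2.45). Akr1b7 was counted 0 times in MHs and 11 times in SHs, 1.47-fold higher in RPM with MHs set at the floor of 3 reads. The lower end of its counting interval was a log2 ratio of 0.0088. Por and Alas1 stand on this list as well as on that of electron donors and heme. The ratio of Cyp2a5 lay below all 22 of these genes, and that of Cyp2b10 was within their range.

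Expression of Cyp2a5, Cyp2b9 and Cyp2b10 is known to be stronger around the central vein, so the genes were set beside genes of this zone (ZONE3). All 10 pericentral genes listed were at least 2-fold lower in SHs with intervals under 0, against 4.46% of all genes. Their median log2 ratio was -1.83, and they ranged from Slc1a2, a glutamate transporter, at -4.23 to Axin2, a target of Wnt signaling, at -1.08. The lists were chosen with earlier results of these data known. The paper had already reported Glul, Lgr5, Axin2, Cyp1a2 and Cyp2e1 as lower in SHs, so the count of 10 was in part known beforehand. By point values, Cyp2a5 and Cyp2a4 had lower ratios than 8 of these 10 genes, and only Slc1a2 and Glul, the glutamine synthetase at -2.68, lay lower. Cyp2b9 had a lower ratio than 6 of them, whereas Cyp2b10, Cyp2a12 and Cyp2a22 had higher ratios than all 10. The intervals of Cyp2a4 (-3.00 to -1.61) and Cyp2b9 (-2.75 to -1.08) each included the ratios of several pericentral genes, so their exact places were not resolved. The 10 periportal genes (ZONE1) were all higher in SHs with intervals over 0, against 16.8% of all genes. Among them, Cdh1 had already been reported as higher by the paper. Their median was 0.47, with a range from 0.058 for Cyp2f2, a neighbor of Cyp2a12, to 1.29 for Aldh1b1. The 6 Cyp2a and Cyp2b genes all lay outside this range apart from Cyp2b10, whose 0.13 fell within it. The part of zonation in these ratios was not tested.

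**Figure D5:**
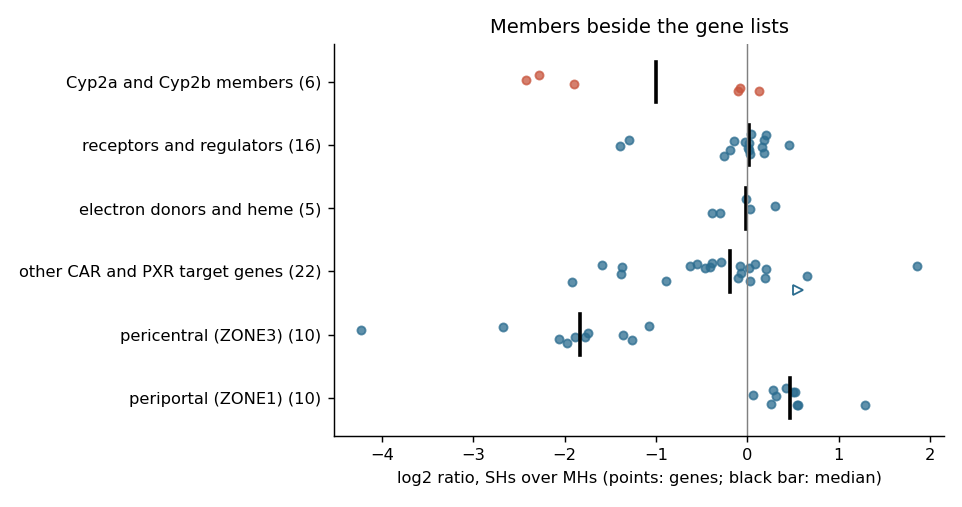
Log2 ratio of SHs over MHs for the 6 Cyp2a and Cyp2b genes (red) and for 5 gene lists (blue), with 1 point per gene with at least 10 reads, the number of such genes in brackets and the median as a black bar. The open triangle is the value of Akr1b7, which had 0 reads in MHs, with MHs set at the floor of 3 reads. Cyp2a5, Cyp2a4 and Cyp2b9 fell in the range of the pericentral genes, whose median was -1.83, and the other 3 genes near 0.

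Cyp2a4, Cyp2b9 and Cyp2b13 are known as genes with female-biased expression in mouse liver, so other genes of known sex bias were examined. Of 10 female-biased genes outside these subfamilies, 5 had at least 10 reads. These were Cyp3a41a, Cyp3a41b, Cyp3a44, Cyp3a16 and Acot3, with log2 ratios between -0.83 and -0.31 and intervals under 0 for 3. Sult3a1 and Hao2 had 0 reads in both libraries. All 10 male-biased genes had at least 10 reads, among them Cyp2d9 with 22558 reads in MHs and 45023 in SHs, and their median log2 ratio was -0.40, from -0.69 to 0.13. No gene of either list was at least 2-fold apart between the libraries with an interval on that side of 0 (0 of 15). Among all genes with at least 10 reads, 4.46% were lower and 2.00% higher in this way, so few would be looked for among 15. Cyp2a4 and Cyp2b9 lay below the lowest ratio of both lists, although the reads of Cyp2a4 may in part be those of Cyp2a5.

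Among the other Cyp genes with at least 200 reads, the 3 whose log2 ratio was closest to that of the Cyp2a sum were Cyp3a59, Cyp2d10 and Cyp3a57, with -0.24, -0.28 and -0.22. Closest to the Cyp2b sum were Cyp3a25, Cyp3a13 and Cyp2r1, with -0.15, -0.12 and -0.16. Likeness here is the difference of 1 ratio over 2 libraries, and it describes the sums and not the genes that make them up.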

How the data were processed

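Poly(A) RNA of MHs and SHs was sequenced on an Ion Proton system. For each of the 2 libraries the authors deposited whole read counts per gene symbol, with no normalization applied. Per the methods, reads were trimmed and mapped to mm10 in CLC Genomics Workbench, with a cap on hits per read, and expressed as RPKM, and which program and annotation gave the whole counts is not given in the sources used here.

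Counts were scaled to RPM by the total of counted reads, with 0.5 reads added for log2 ratios, in Python 3.11.15 with scipy 1.17.1. With 1 library per group, intervals at the 95% level (Clopper-Pearson for ratios and shares, exact Poisson for levels) cover counting error only, and reads carried no molecular identifiers. Alternatives were edgeR's TMM (4.0.16), DESeq2's size factors (1.42.0), a total that leaves out the 10 most-read genes, an added count of 2, other read minimums and other sums. The calculation was tested on simulated counts. Coordinates, transcripts and pseudogenes came from GENCODE M21, and sequences upstream of starts from RefSeq, in which all 9 genes were matched. Identities came from global alignments with Biopython 1.88.

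The genes, lists and comparisons were chosen with earlier results of these data known. The genes to be named were all Cyp2a and Cyp2b genes, genes of the lists with at least 10 reads, and for each sum the 3 closest other Cyp genes with at least 200 reads. List genes with fewer reads are named by their reads only, and genes of the cluster outside the lists were named after their values were seen.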

Additional observations from a re-analysis of the deposited data

How the results depend on the processing

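No paired analysis was possible because MHs and SHs each had a single library. When libraries were scaled with TMM, with DESeq2's size factors or with a total that leaves out the 10 most-read genes, this shifted all log2 ratios alike, by between 0.0091 and 0.032, and with 2 added reads no single Cyp2a or Cyp2b gene left its interval. With the shorter total, medians moved by more than counting error for the other CYP2 genes of the cluster (only Cyp2f2, 0.090), the hepatocyte genes (0.059) and the periportal genes (0.50). The Cyp2a sum depended on its genes, with a log2 ratio of -1.62 without Cyp2a12 and, chosen after the data were seen, -2.42 for Cyp2a4 and Cyp2a5 and -0.098 for Cyp2a12 and Cyp2a22. The Cyp2b sum without Cyp2b10 was -1.87. With at least 100 reads, which leaves out Cyp2a4 and Cyp2b9, the median of the Cyp2a and Cyp2b genes was -0.087, and that of the CAR and PXR targets was -0.29. With no read minimum, the median of the other CYP2 genes was 0.95, and that of the cholangiocyte markers changed sign to -0.82. Genes at least 2-fold lower numbered 693 and higher 310, with at least 100 reads 128 and 61, and at 1.5-fold 962 were lower and 543 higher. In these comparisons fewer or other genes entered by construction. Sums with pseudogenes were not run, because 0 of the 3 annotated with a Cyp2a or Cyp2b name were counted. Depth limits Cyp2b13, Cyp2b19 and Cyp2b23 most, with at most 1 read in each library, and among the 6 genes with ratios Cyp2a4 and Cyp2b9, with 28 and 22 reads in SHs.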
